A study of Sorghum bicolor with 12 samples.

Results

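In the vegetative stem of bioenergy sorghum, 129 of 47205 transcripts, from 122 of 34211 gene loci, made up the set that peaked in the third internode below the shoot apex (Int3) and fell back in the internode beneath it. They were selected on their levels in RPKM, read counts divided by transcript length and by the mapped reads of the library: an Int3 mean of at least 5, at least 2 times the means of the younger internodes Int1 and Int2, at least 1.5 times the mean of the older internode Int4, and every Int3 value above every Int2 and every Int4 value. The Int3 peak is therefore how the transcripts were found and is given below as a description, with no test. Of the 13869 transcripts with an Int3 mean of at least 5, 1414 were also at least 2 times Int1 and Int2. The 1.5-fold margin over Int4 reduced these to 195, so most transcripts that had climbed by Int3 did not come down by that much in Int4.

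In a young grass internode cell division is spread throughout, as the study proposes, and an intercalary meristem remains at its base during elongation. Its cells divide, elongate while expansins and pectin-modifying enzymes loosen and remodel the primary wall, and then, in fibres and vascular tissue, lay down a secondary wall of cellulose, xylan and lignin. Some arabinogalactan proteins of the fasciclin-like type, some COBRA family proteins and enzymes of the phenylpropanoid pathway have been linked to that later wall in Arabidopsis and other plants.

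The material was the photoperiod-sensitive Sorghum bicolor genotype R.07020, grown in a growth chamber with a 14 h photoperiod that kept it vegetative and harvested 60 days after planting. The 4 groups were Int1, the youngest visible internode, and then Int2, Int3 and Int4, with Int4 the oldest and fully expanded. Each was taken whole from 3 plants of this 1 inbred, which gave 12 polyA RNA-seq libraries. There was no untreated control, and the internodes differed in position, age and length together. Because whole internodes were extracted, a change in how many cells of a type were present and a change in RNA per cell cannot be told apart. Sequencing depth, read from the spacing of low values, ran from 0.836 to 1.05 times that of the replicate 1 library of Int1. Leaves and leaf sheaths had been removed. The summed RPKM of 25 photosynthesis transcripts, taken as a possible sign of leftover leaf tissue, was 363 to 588 per library. Int3 replicate 3 was highest, and the part of this sum in the results was not tested. The 25 were among the transcripts the study had chosen as differing between internodes.

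Summed over the 129 members, the RPKM of the 3 libraries was 577, 605 and 559 in Int1, 1585, 1572 and 1070 in Int2, 4519, 4363 and 5046 in Int3, and 2455, 1935 and 2364 in Int4. The libraries of the 4 internodes did not overlap. At the peak the set held 0.964% ± 0.0721 of all RPKM (SD, n = 3), against 0.116% ± 0.0045 in Int1. Int3 means ran from 5.24 to 665 RPKM with a median of 16, and 8 members reached at least 100. Int4 held the next highest mean for 107 members, Int2 for 17 and Int1 for 5. The Int3 mean was at least 2 times the Int4 mean in 70 members and at least 3 times it in 17.

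**Figure D1:**
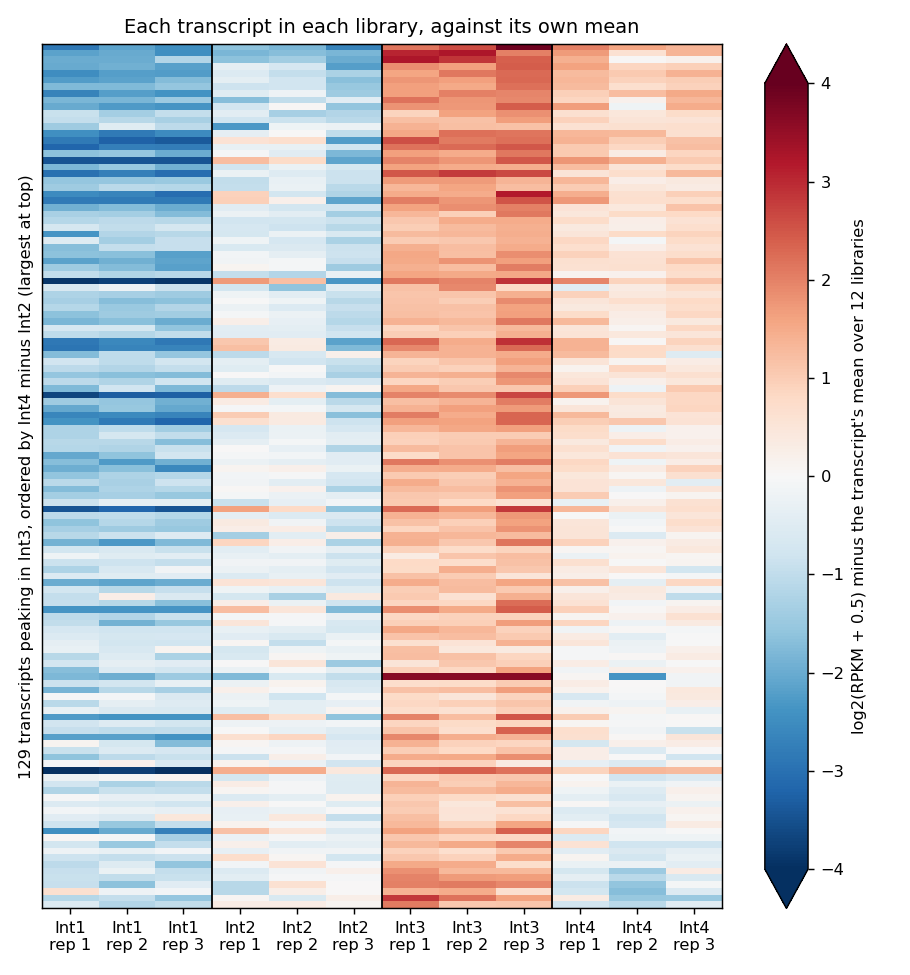
Each row is 1 of the 129 members and each column a library; colour is log2(RPKM + 0.5) minus the mean of that transcript over the 12 libraries, and rows run from the largest to the smallest Int4 minus Int2 difference. The Int3 block is highest throughout, as the selection requires, while the Int2 replicate 3 column is paler or bluer than its neighbours in many rows, being the lowest Int2 library for 89 members.

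The steepest peak belonged to a wall-loosening gene. Sobic.006G031900.1, annotated as an alpha-expansin related to Arabidopsis EXPA11, had 0.32, 0.24 and 0.55 RPKM in Int1, 0.35, 1.38 and 0.96 in Int2, 35.1, 35.1 and 35.4 in Int3, and 2.55, 0.06 and 2.1 in Int4. Its 3 Int3 libraries were nearly equal, and no library of any other internode came above 2.55 RPKM. With 0.5 added to both means, Int3 stood 17.2 times above the next internode, the highest such ratio in the set. Its means in Int1, Int2 and Int4 were all below the 2 RPKM that a call required, so none of the changes among those internodes could be called. Int4 minus Int1 was 0.93 ± 0.52 on the log2(RPKM + 0.5) scale and Int2 minus Int1 was 0.62 ± 0.52 (SE). Alpha-expansins loosen growing walls without cutting their polymers.

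A mannan synthase followed with a similarly narrow peak. The locus Sobic.010G197300, annotated as a CSLA9-type beta-mannan synthase that makes the backbone of the hemicellulose glucomannan, contributed 2 members. Sobic.010G197300.3 had means of 1.69, 3.66, 16.1 and 2.06 RPKM in Int1 to Int4, with SDs of 0.83, 2.18, 0.845 and 1.3 (n = 3 each). Sobic.010G197300.1 had 3.01, 1.69 and 3.45 RPKM in Int2, 23.0, 14.6 and 9.63 in Int3, and 3.66, 0.68 and 0.70 in Int4. In both transcripts the Int4 and Int1 values overlapped. Int4 minus Int1 was 0.17 ± 0.45 for Sobic.010G197300.3 and 0.33 ± 0.46 for Sobic.010G197300.1 (log2 scale, SE). The first did not pass the test (limma adjusted p = 0.76), and the other was below 2 RPKM in both internodes and could not be called. The remaining transcript of the locus, Sobic.010G197300.2, averaged 3.29 ± 1.69 RPKM in Int3 and 1.06 ± 0.468 in Int4 (SD, n = 3 each). Reads of transcripts of 1 gene can be divided among them in more than 1 way, so how the locus total splits is uncertain.

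Other polysaccharide enzymes had Int4 means near those of Int2. Sobic.004G308200.1, annotated as FT1, in Arabidopsis a fucosyltransferase of the hemicellulose xyloglucan, had means of 1.69, 2.01, 6.96 and 2.87 RPKM from Int1 to Int4. Sobic.010G060701.1, annotated as the glucuronidase GUS3, was nearly level outside Int3. It averaged 10.5 ± 0.719, 10.6 ± 0.8, 22.8 ± 3.02 and 8.67 ± 0.657 RPKM from Int1 to Int4 (SD, n = 3). For neither gene did any of the changes between Int1, Int2 and Int4 pass the test. Sobic.004G319600.1, a pectin lyase-like protein of the polygalacturonase type, averaged 12.5 ± 2.03 RPKM in Int3 and 3.42 ± 1.34 in Int4. Its sister transcript Sobic.004G319600.3 was at 14.1 RPKM in Int3 and 17.3 in Int4, so the locus as a whole did not fall in the same way.

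Members of families in which some proteins are tied to secondary walls were partly still well above Int1 in Int4. Sobic.009G056400.1, annotated as the fasciclin-like arabinogalactan protein FLA11, whose Arabidopsis namesake is expressed in stems that form secondary walls, had 0.05, 0.42 and 0.24 RPKM in Int1 and 0.79, 0.62 and 0.13 in Int2. It then had 17.4, 24.0 and 58.8 RPKM in Int3 and 15.8, 11.4 and 9.78 in Int4. It was near 0 in all 6 libraries of the younger internodes and present in all 6 of the older ones, although 1 Int3 library was more than 2 times the others. Its Int4 minus Int2 difference was 3.70 ± 0.41 (log2 scale, SE, limma adjusted p = 1.2e-05), the largest of the set, while Int2 minus Int1 was 0.43 ± 0.41 (limma adjusted p = 0.52). A relative, Sobic.002G244300.1 (FLA7), had means of 3.29, 10.5, 41.7 and 21.6 RPKM in Int1 to Int4. Sobic.002G368300.1, a COBRA family protein annotated as acting in secondary wall synthesis like Arabidopsis IRX6, had means of 2.94, 7.05, 23.7 and 10.3 RPKM. FLA7 passed the test in Int4 against Int1, whereas the COBRA transcript missed it at a limma adjusted p of 0.0014. Of all 14 arabinogalactan protein entries of the annotation that was read, 6 were called higher in Int4 against Int1 and 7 lower.

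Several wall-degrading and pectin-modifying members were also above Int1 in Int4. Sobic.001G140300.1, an endo-xylanase annotated as RXF12, had 0.14, 0.27 and 0.12 RPKM in Int1, 3.76, 3.04 and 2.31 in Int2, 28.0, 35.0 and 31.4 in Int3, and 6.86, 7.78 and 11.96 in Int4. The 4 internodes did not overlap at any step. The transcript passed the test in every comparison that leaves Int3 out: Int4 minus Int1 was 3.76 ± 0.22, Int4 minus Int2 was 1.39 ± 0.22 and Int2 minus Int1 was 2.37 ± 0.22 (log2 scale, SE, limma adjusted p = 4.9e-08, 0.00017 and 0.00011). The call in Int2 against Int1 was lost without Int1 replicate 1, Int1 replicate 3 or Int2 replicate 2 (limma adjusted p = 0.00105, 0.00104 and 0.00121). Sobic.001G066900.1, a glycosyl hydrolase binned with enzymes that degrade mannan and xylan, had means of 0.16, 1.24, 12.6 and 7.16 RPKM in Int1 to Int4. A pectinesterase, Sobic.007G146200.1, and a pectin acetylesterase, Sobic.003G094800.1, which strip methyl and acetyl groups from pectin, averaged 31.3 ± 4.15 and 30.7 ± 3.64 RPKM in Int3 (SD, n = 3 each). They averaged 17.1 ± 7.76 and 15.1 ± 2.95 RPKM in Int4, and both passed the test in Int4 against Int1. The pectinesterase had 26.0 RPKM in Int4 replicate 1 and 12.03 and 13.24 in the other Int4 libraries.

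**Figure D2:**
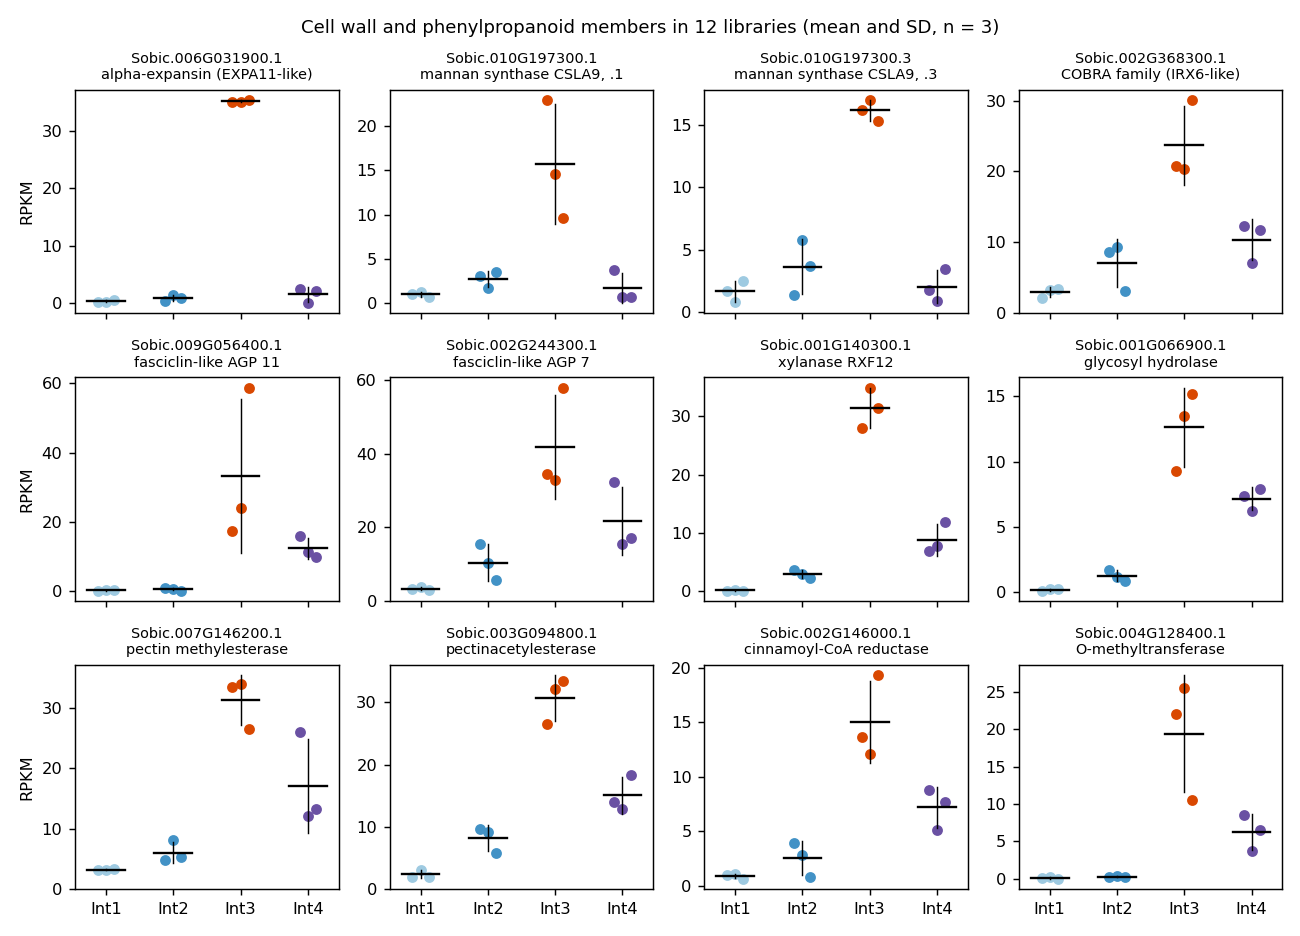
RPKM of 12 members with cell wall or phenylpropanoid annotation in the 12 libraries; points are libraries, the horizontal bar is the mean and the vertical bar the SD (n = 3), and each panel has its own axis. The expansin and both mannan synthase transcripts are back near their Int1 values in Int4 (expansin means of 1.57 RPKM in Int4 and 0.37 in Int1), whereas FLA11, the xylanase and the O-methyltransferase are above Int1 and Int2 in all 3 Int4 libraries.

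The phenylpropanoid members were 2 O-methyltransferases and 1 cinnamoyl-CoA reductase, the enzyme that commits hydroxycinnamoyl-CoA esters to lignin monomers. Sobic.004G128400.1, an O-methyltransferase, had 0.12, 0.18 and 0 RPKM in Int1, 0.27, 0.35 and 0.28 in Int2, 22.0, 25.5 and 10.6 in Int3, and 8.52, 3.68 and 6.58 in Int4. All 6 libraries of Int1 and Int2 were at or below 0.35 RPKM, and the Int4 minus Int2 difference was 3.01 ± 0.33 (log2 scale, SE, limma adjusted p = 1.1e-05). Its relative Sobic.007G074800.1 was already up in Int2, with means of 0.48, 7.06, 24.5 and 11.8 RPKM from Int1 to Int4, and passed the test in Int2 against Int1 (difference 2.86 ± 0.35, limma adjusted p = 0.00076). That call was lost when the replicate number was entered as a block (limma adjusted p = 0.0016), and it held with 1 library left out only where that was Int2 replicate 3 or Int3 replicate 3. The reductase Sobic.002G146000.1, annotated as CCR1, had means of 0.887, 2.52, 15.0 and 7.23 RPKM, and passed the test in Int4 against Int1 (difference 2.46 ± 0.38, limma adjusted p = 0.00012). All 3 phenylpropanoid members passed in Int4 against Int1. Of all 136 secondary metabolism entries of the annotation that was read, 85 were called higher in Int4 against Int1. The study had chosen those entries as differing between internodes.

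Lipid and sugar enzymes, an amino acid enzyme and a kinase subunit completed the annotated members. Sobic.003G418700.1, a triglyceride lipase, was the most abundant annotated member, with 201, 197 and 277 RPKM in Int3 and 163, 123 and 126 in Int4. Its Int1 and Int2 libraries lay together between 34.8 and 49.8 RPKM, and Int4 minus Int2 was 1.56 ± 0.15 (log2 scale, SE, limma adjusted p = 4.8e-06). Sobic.002G111500.1, annotated as FATB, the thioesterase that releases saturated fatty acids from their carrier protein in the plastid, had means of 0.523, 4.08, 11.7 and 5.20 RPKM from Int1 to Int4. Sobic.006G255600.1, annotated as a fructan exohydrolase, and Sobic.010G168800.1 (MIOX1), a myo-inositol oxygenase that feeds inositol into sugars of the wall, reached 16 ± 1.37 and 13.4 ± 0.943 RPKM in Int3 (SD, n = 3 each). They were at 8.58 ± 1.22 and 8.45 ± 1.25 RPKM in Int4. Sobic.005G222400.1 (CHY1), a beta-hydroxyisobutyryl-CoA hydrolase of valine breakdown, was binned with tryptophan degradation. It had 27.4, 20.2 and 65.2 RPKM in Int3 and 20.1, 11.3 and 6.46 in Int4. Its mean rested heavily on Int3 replicate 3, and its lowest Int3 value was only just above its highest Int4 value. Sobic.006G047000.4 (KING1), annotated as a regulatory subunit of an SNF1-related kinase but binned with cell wall proteins, had 8.07, 8.36 and 8.99 RPKM in Int3. Its larger sister transcripts Sobic.006G047000.2 and Sobic.006G047000.3 were highest in Int4, at 27.7 and 80.9 RPKM in Int3 and 38.1 and 98.1 in Int4.

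Annotation was in hand for 22 members only, from a shortened copy of the functional annotation of the study that held 770 transcripts, chosen by the study as differing between internodes. The copy held only photosynthesis, primary and secondary metabolism, metal and cell wall bins. Bins for hormones, transcription factors, signalling, development and transport were missing from it, so transcripts of those classes could not be named. Of the 22 annotated members, 14 were among the 197 cell wall entries of the copy (7.11%), while 22 of all 770 entries (2.86%) were members. Within the cell wall entries, members made up 4 of 39 for wall degradation, 3 of 34 for cellulose synthesis, 3 of 34 for wall proteins, 2 of 19 for pectinesterases, 1 of 8 for hemicellulose synthesis and 1 of 38 for wall modification, and none of 24 for precursor synthesis. Lipid metabolism gave 2 of 145, secondary metabolism 3 of 136 with 1 of its 42 lignin entries, and photosynthesis none of 25. The bins count transcripts and follow the annotation. The 3 in cellulose synthesis were the 2 transcripts of the mannan synthase locus and the COBRA transcript, and 1 of the 3 wall proteins was the kinase subunit KING1. These shares describe the copy that was read, and no enrichment was tested. Within the same cell wall entries, 57 of 197 had their highest mean in Int3, so membership also reflects the margins that were set.

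The levels of the members before and after the peak were compared among Int1, Int2 and Int4. The rule did not contrast these internodes with each other, but it used their values: it capped Int1 and Int2 at the Int3 mean divided by 2 and Int4 only at the Int3 mean divided by 1.5, which leaves more room for a high Int4. All transcripts tested were under no such limits. The counts and medians of the members in Int4 against Int1 and Int2 are therefore descriptions, and the shares of all transcripts printed beside them are no test of the set. A transcript was called at a limma adjusted p under 0.001 over 26320 transcripts, a change of at least 2-fold and a mean of at least 2 RPKM in either internode. All 129 members were in the fit because their Int3 level admits them, but some were too low elsewhere to be called. The level of 2 RPKM was reached by 125 members in Int4 against Int1, by 127 in Int4 against Int2 and by 107 in Int2 against Int1.

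Most of the set remained above its starting level in the oldest internode. In Int4 against Int1, 75 members were called higher, where 12.4% of all transcripts tested were, and 0 were called lower, where 14.2% of all were. At an unadjusted limma p under 0.05, 103 were higher and 2 lower, where 26.0% and 42.3% of all transcripts tested were. All 3 Int4 values were above all 3 Int1 values in 106 members, against 26.3% of all transcripts. The median change of the members was 1.63 on the log2 scale and that of all transcripts was -0.25. Scaling each library by its median ratio brought the median of the members to 1.88 and that of all transcripts to -0.02. The largest change was in Sobic.005G050200.1, with 251, 345 and 324 RPKM in Int4 and 4.58, 9.58 and 3.24 in Int1 (difference 5.72 ± 0.34, limma adjusted p = 6.0e-08). At the other end, 7 members had a lower mean log2 level in Int4 than in Int1. The lowest of them was Sobic.003G276700.1, which averaged 1.07 RPKM in Int4 and 2.79 in Int1 (difference -1.10 ± 0.41, limma adjusted p = 0.033).

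Fewer members differed between the internodes on either side of the peak. In Int4 against Int2, 26 members were called higher, where 10% of all transcripts were, and 0 were called lower, where 9.41% of all were. The unadjusted limma p was under 0.05 for 71 higher and 3 lower, where 23.9% and 36.5% of all transcripts tested were. All 3 Int4 values exceeded all 3 Int2 values in 59 members, against 24.6% of all transcripts, and the median change was 0.66 for the members and -0.17 for all. The count of 26 became 16 without Int2 replicate 3, 13 without Int4 replicate 1 and 17 without Int4 replicate 3. All 26 were also called higher in Int4 against Int1, and the same overlap over all transcripts was not counted. After FLA11 and the O-methyltransferase Sobic.004G128400.1, the largest called changes were in Sobic.002G208000.1, Sobic.003G352700.1 and the glycosyl hydrolase Sobic.001G066900.1. Sobic.002G208000.1, which carries no annotation here, had 4.76, 1.55 and 1.75 RPKM in Int4 and 0.13, 0.26 and 0 in Int2, beside 17.9, 13.9 and 9.94 in Int3. Its call was lost without Int2 replicate 1, Int2 replicate 3 or Int4 replicate 1, and that of Sobic.003G352700.1 with any single Int4 library left out. The lowest difference was that of Sobic.001G538932.1, which carries no annotation here and had 1.34, 0.99 and 1.82 RPKM in Int4 and 3.41, 3.41 and 2.92 in Int2 (difference -1.01 ± 0.28, limma adjusted p = 0.0088, not called). Among the annotated members the lowest were both mannan synthase transcripts, with Int4 minus Int2 at -0.79 ± 0.46 for Sobic.010G197300.1 and -0.67 ± 0.45 for Sobic.010G197300.3 (limma adjusted p = 0.17 and 0.23).

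Fewer still were called between the youngest internodes. In Int2 against Int1, 7 of the 107 members that reached 2 RPKM were called higher, where 0.433% of all transcripts tested and 0.567% of those at that level were, and 0 were called lower, where 0.0418% of all were. At an unadjusted limma p under 0.05, 83 were higher and 0 lower, and 41 were higher at an adjusted p under 0.05 with the same fold and level limits, where 2.29% of all transcripts were. All 3 Int2 values were above all 3 Int1 values in 79 members, against 17% of all transcripts. The mean log2 level was higher in Int2 in 118 members, and the median change of all transcripts tested was -0.06. With the replicate number as a block, 5 members were called, 4 of them among the 7. The count was 22 without Int2 replicate 3 and fell to 2 without Int1 replicate 1 or without Int2 replicate 2, 3 without Int1 replicate 3 or Int2 replicate 1, and 4 without Int1 replicate 2, Int3 replicate 1 or Int3 replicate 2. The called members included the xylanase, the O-methyltransferase Sobic.007G074800.1 and the 2 most abundant transcripts of the set, of which Sobic.008G049200.1 lost its call without Int1 replicate 1, Int2 replicate 1 or Int2 replicate 2. All 7 were also called higher in Int4 against Int1, and 54 members were called in none of the 3 comparisons, of which 2 were below 2 RPKM in all 3. These 2 overlaps were not counted over all transcripts.

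**Figure D3:**
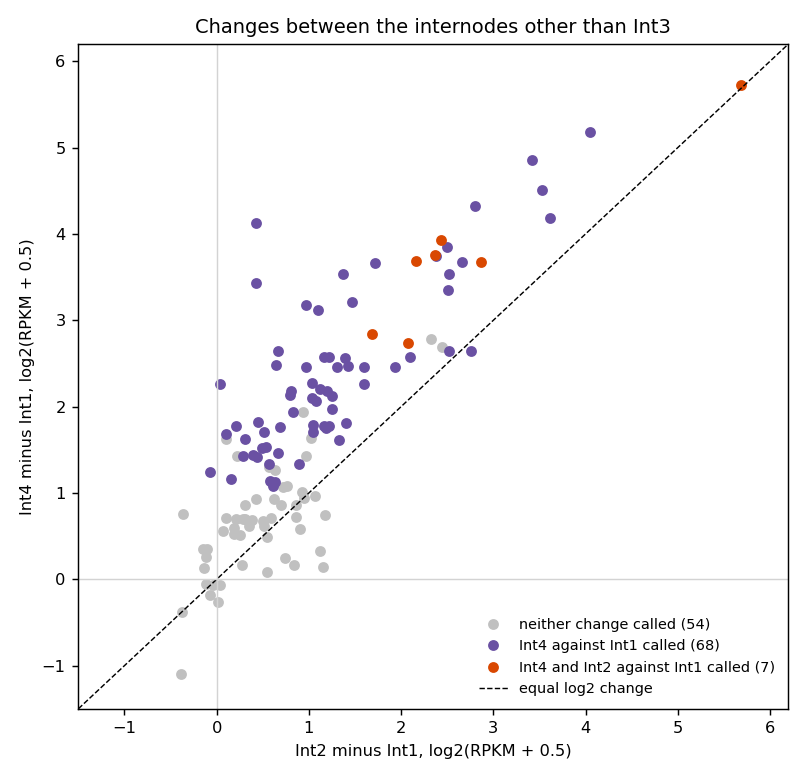
Each point is a member, placed by its Int2 minus Int1 difference (x axis) and its Int4 minus Int1 difference (y axis), both on the log2(RPKM + 0.5) scale. Of the 129 points, 7 are called in both (orange), 68 in Int4 against Int1 only (purple) and 54 in neither (grey); 110 lie above the dashed line of equal change, that is, higher in Int4 than in Int2.

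For comparison, 899 transcripts met the same limits for level, Int1 and Int2, with every Int3 value above every Int2 value, and were at least as high in Int4 as in Int3. In Int2 against Int1, 7 of the 129 members (5.43%) and 57 of the 899 (6.34%) were called higher. The median Int2 minus Int1 change was 0.83 for the members and 0.57 for the 899. No test of the difference between these groups was made.

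The abundant members carried no annotation in the copy that was read. Sobic.005G050200.1, the most abundant, had 369, 383 and 182 RPKM in Int2, 666, 714 and 614 in Int3, and the Int4 values above. On the log2 scale most of its climb lay between Int1 and Int2 (Int2 minus Int1 5.68 ± 0.34, limma adjusted p = 1.5e-05), and Int4 did not differ from Int2 beyond the error (0.04 ± 0.34, limma adjusted p = 0.93). Sobic.008G049200.1 was next, with means of 30.0, 125, 323 and 199 RPKM from Int1 to Int4. Sobic.008G077800.2 had means of 24.2 ± 3.84, 40.1 ± 16.6, 309 ± 45.5 and 144 ± 56.4 RPKM (SD, n = 3), and Int4 minus Int2 was 1.84 ± 0.31 (limma adjusted p = 0.00035). That call was lost without Int2 replicate 1 or 2 or Int4 replicate 1 or 3 (limma adjusted p of 0.0013 to 0.0018).

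Several members that were near 0 in Int1 split the Int2 libraries. Sobic.001G059700.1 had 0.08, 0.15 and 0.08 RPKM in Int1 and 27.8, 19.6 and 1.24 in Int2, followed by 37.2, 33.5 and 63.4 in Int3 and 33.0, 15.8 and 18.6 in Int4. Sobic.002G050100.1 had 16.5, 9.64 and 1.39 RPKM in Int2, and Sobic.001G068500.1 had 12.4, 8.83 and 0.78 in Int2 while it was listed at 0 in all 3 Int1 libraries. In each case Int2 replicates 1 and 2 were near the Int4 values, and Int2 replicate 3 was nearer to the Int1 values. For Sobic.001G059700.1 the Int2 minus Int1 difference of 4.05 ± 0.79 was not called (limma adjusted p = 0.0074), with this spread among the 3 Int2 libraries.

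That split ran through the set. Int2 replicate 3 was the lowest of its internode for 89 members (69.0%), where it was the lowest for 31.3% of all transcripts tested, and it was under 0.5 times both other Int2 libraries in 32 members (24.8%), against 2.53% of all. Int2 replicates 1 and 2 were under 0.5 times both others in 6 and 2 members. Int4 replicate 2 was the lowest of its internode for 84 members (65.1%), against 28.7% of all transcripts, and Int3 replicate 3 the highest for 81 (62.8%), against 29.6% of all. The rule used these same values. A low library lowers an Int2 or Int4 mean that the rule capped, and a high Int3 library lifts the Int3 mean. The shares of the members are therefore descriptions, and all transcripts were under no such limits. The 899 transcripts that did not come down in Int4 were lowest in Int2 replicate 3 in 40.7% and in Int4 replicate 2 in 25.5%. They had no upper limit in Int4, unlike the members, and the difference from the members was not tested. Int3 replicate 3 was the highest for 54.3% of the 899. Relative depth was 0.854 for Int2 replicate 3, against 0.892 and 0.872 for the other Int2 libraries, and its photosynthesis sum was 415 RPKM, against 473 and 458. The part of depth or leaf tissue in the split was not tested.

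**Figure D4:**
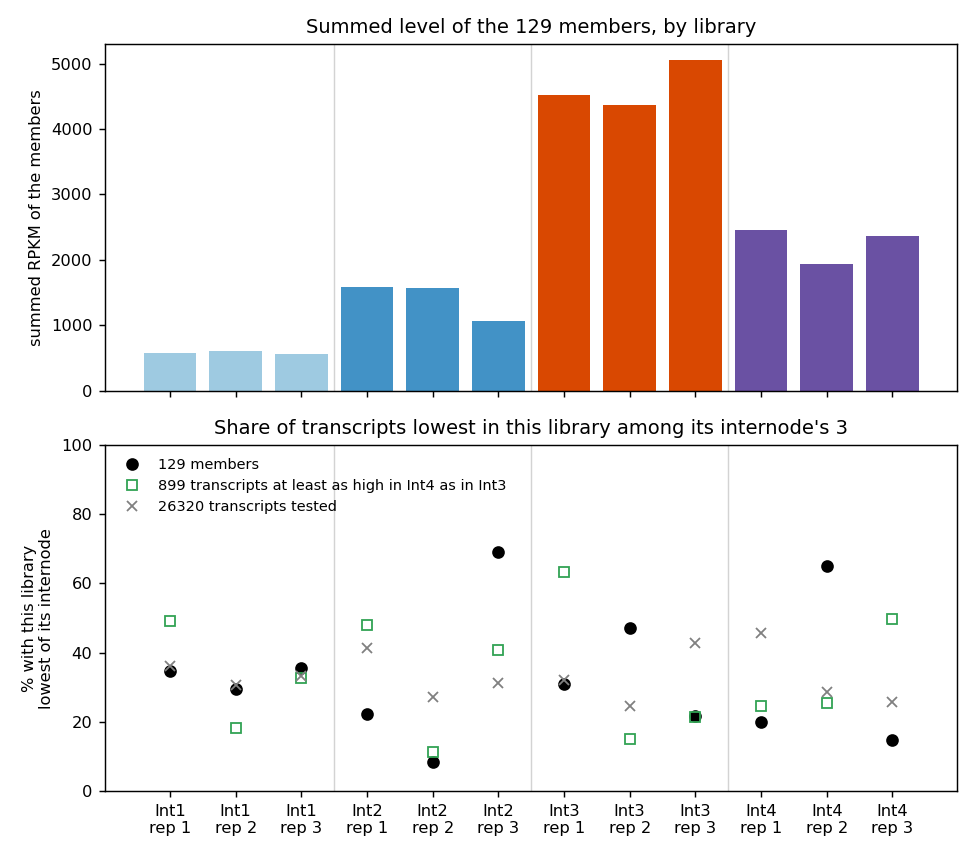
Upper panel, summed RPKM of the 129 members in each library (bars start at 0). Lower panel, percentage of transcripts for which a library was the lowest of its internode's 3, for the members (filled circles), the 899 transcripts at least as high in Int4 as in Int3 (open squares) and all 26320 tested (crosses). Members stand out at Int2 replicate 3 (69.0%) and Int4 replicate 2 (65.1%), in internodes whose means the rule capped.

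The limits of the rule were also applied to 2 of the 3 replicate numbers, and the 4 libraries of the number left out were then read. This shows how often a peak chosen by the limits recurred in other libraries of the same experiment. The transcripts chosen were only partly the members: they included 113, 116 and 84 members with number 1, 2 and 3 left out. All libraries had been used to define the members, so the peak of the member set itself was not tested. The shares of all transcripts are descriptions, because those transcripts were under none of the limits of the rule. With number 1 left out, 300 transcripts were selected and 182 (60.7%) were highest in their Int3 library, where 20.9% of all transcripts were. With number 2 left out it was 167 of 180 (92.8%), where 21% of all were, and with number 3 left out it was 101 of 134 (75.4%), where 23.6% of all were. The full fold margins were met in the libraries left out by 60, 88 and 67 of these transcripts, against 1.99%, 1.90% and 4.11% of all. Most of the shortfall for number 1 was against Int4: in 189 of the 300 the left-out Int3 library exceeded Int4 replicate 1, and the count of transcripts meeting the rule grew to 208 without Int4 replicate 1.

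**Figure D5:**
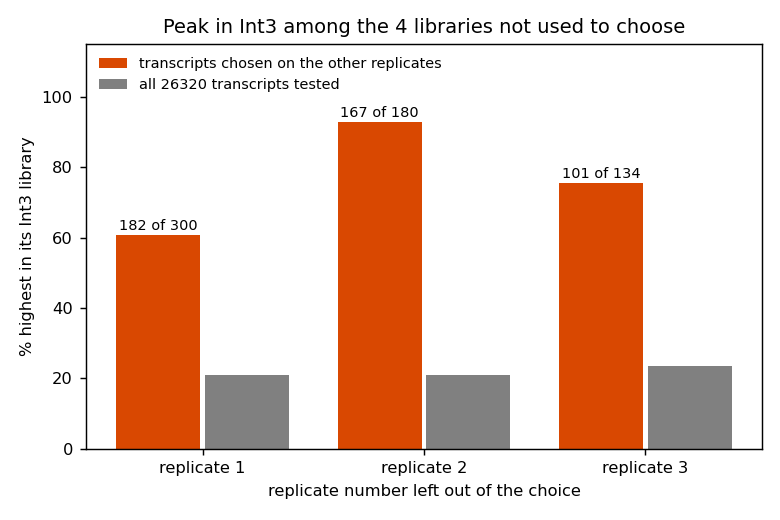
Percentage of transcripts that were highest in the Int3 library among the 4 libraries of the replicate number left out of the selection (x axis), for the transcripts selected on the other replicates (orange, with counts) and for all transcripts tested (grey). The selected transcripts, which were only partly the members, reached 60.7%, 92.8% and 75.4%. The shares of all transcripts, which were under none of the limits of the rule, were 20.9%, 21% and 23.6%.

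Transcripts lay close to the margins of the rule on each side. Just inside the Int4 margin were Sobic.006G170000.1 and Sobic.009G220100.1, with Int3 means 1.501 and 1.505 times their Int4 means, and just outside it was Sobic.004G307300.1 at 1.48 times. Just inside the Int2 margin was Sobic.002G255200.1 at 2.02 times, and just outside it Sobic.010G228100.1 at 1.99 times. A further 231 transcripts met everything but the Int3 mean of 5, the highest of them Sobic.006G209300.1 at 4.92 RPKM, and 51 failed only because an Int4 value reached the lowest Int3 value.

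Other transcripts of the same genes were not part of the selection. Of the 122 loci, 87 had 1 transcript in the table and 35 had several. The 35 loci held 52 transcripts that were not members, of which 47 had a mean of at least 1 RPKM in some internode. Among those 47, Int3 was the highest internode in 35 (74.5%), against 21.6% of all transcripts at that level, and Int4 was the highest in 6. At a mean of at least 5 RPKM the count was 12 of 22 (54.5%), against 21.1% of all. Transcripts of a gene share reads, so they are not independent measurements of it. The locus Sobic.002G424600 had 8 transcripts, of which 1 was a member. All its others were highest in Int3, at means of only 1.35 to 2.42 RPKM, and are counted among the 35. All 5 transcripts of Sobic.009G036500 were members, with Int3 means of 5.43 to 7.18 RPKM, and so were both of Sobic.005G022500, at 59.0 and 7.15 RPKM.

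By their identifiers, member loci were spread over all 10 chromosomes, with 2 loci on unplaced sequence. Their share ran from 0.204% of the loci on chromosome 10 to 0.534% on chromosome 5. In 3 pairs the identifiers were next to each other in number order, namely Sobic.002G284701 with Sobic.002G284800, Sobic.005G004700 with Sobic.005G004800, and Sobic.005G072600 with Sobic.005G072700. The last pair had Int3 means of 5.53 and 13.7 RPKM.

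Sobic.008G112200.1 was the only member for which the study had designed quantitative PCR primers, and these are shown because they are the only bases at hand that tie a member's identifier to a sequence. Both are written 5′ to 3′.

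Sobic.008G112200.1 forward primer: cgtacatgctgcggagtg
Sobic.008G112200.1 reverse primer: acgatgagctcctcctcctg

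This transcript had 1.84, 1.15 and 1.39 RPKM in Int1, 4.37, 3.37 and 2.25 in Int2, 9.61, 7.28 and 9.44 in Int3, and 3.86, 2.78 and 3.08 in Int4. Its Int2 and Int4 libraries overlapped, with a difference of -0.01 ± 0.23 in Int4 minus Int2 (log2 scale, SE, limma adjusted p = 0.99), while Int4 minus Int1 was 0.94 ± 0.23 (limma adjusted p = 0.0032, above the 0.001 needed for a call).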

How the data were processed

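RNA was extracted with TRIzol from whole internodes, and TruSeq v2 polyA libraries were sequenced as single reads on a HiSeq 2500. The authors aligned the reads to the protein-coding transcripts of Sorghum bicolor v3.1 with the CLC Genomics Workbench and deposited RPKM per transcript, rounded to 2 decimals. RPKM divides by transcript length and by the reads of a library, so a rise in abundant transcripts lowers all others. The authors tested differences with edgeR, which needs counts, and counts were not used here. RPKM were taken as deposited, and the depth of single values is unknown.

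Transcripts with a mean of at least 1 RPKM in some internode were tested with limma 3.58.1 (R 4.3.3) on log2(RPKM + 0.5), with a mean-variance trend, 1 mean per internode over all 12 libraries, and Benjamini-Hochberg adjustment over all 26320. The pseudocount makes fold changes of low transcripts too small. The thresholds for a call (adjusted p under 0.001, 2-fold, 2 RPKM) follow those of the study. Libraries were treated as independent although the 4 internodes came from 3 plants. Deviations of same-numbered libraries correlated across transcripts at over 0.1, the limit set for pairing, in every pair only for Int2 and Int1 (0.104 to 0.137), and a fit blocked on replicate number is given beside that comparison. For Int4 and Int2 the correlations were 0.221, 0.0449 and 0.235, and for Int4 and Int1 they were 0.0749, 0.0474 and 0.108. For Int3 they were -0.233, 0.182 and -0.339 with Int4, -0.147, 0.0529 and -0.268 with Int2, and -0.033, 0.051 and -0.14 with Int1. Int3 replicate 3 correlated with replicate 1 of Int4 and Int2 at 0.374 and 0.268. Int3 replicate 1 correlated with their replicate 3 at 0.334 and 0.193. Which libraries came from the same plant is not stated. The replicate block and the leaving out of replicate numbers went by the numbers as given.

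Members and lists were chosen with earlier results of these data known. Transcripts were named if they were among the 10 highest in Int3 or the 10 with the highest ratio of Int3 to the next internode, were in the cell wall, lipid or secondary metabolism bins, had qPCR primers, lay next to a threshold, or showed 1 of the 5 largest called changes of a comparison; from these, those that carry a result are described. The annotated minor carbohydrate and amino acid members, Sobic.003G276700.1, Sobic.001G538932.1, and the members at neighbouring loci or with several member transcripts were named after their values were seen. Functional names are those of the best Arabidopsis match in the annotation of the study. Keyword groups could not be applied, because 0 member identifiers matched the RefSeq gene table. Alternatives were other pseudocounts, no filter, median-ratio scaling, fits on 2 internodes, a replicate block, other margins and each library left out.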

Additional observations from a re-analysis of the deposited data

How the results depend on the processing

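The number of transcripts meeting the rule moved with its margins. It was 201 with folds of 1.5 throughout, 44 with folds of 3 over Int1 and Int2 and 2 over Int4, 233 with an Int3 mean of at least 1, and 195 without the condition on single replicates. Leaving out each library in turn gave 123 to 208, the highest without Int4 replicate 1. Median-ratio scaling gave 97, of which 89 were among the 129, and it changed the summed RPKM to 549 in Int1 and 2558 in Int4. The 14 cell wall members became 9 with the folds of 3 and 2. Sister transcripts peaked in Int3 in 54.5% at a mean of at least 5 RPKM. The members called higher in Int4 against Int1 stayed within 52 and 86 under all alternatives, and 62 to 80 with each library left out. In Int4 against Int2, the 26 became 13 without the filter on low values, 10 in a fit on those 2 internodes alone and 40 at an adjusted p under 0.05, with 13 to 26 when each library was left out. In Int2 against Int1, the 7 became 4 with a pseudocount of 1, 2 without the filter, 0 in the fit on those 2 internodes alone (83 at an unadjusted p under 0.05 in the fit on all libraries) and 41 at an adjusted p under 0.05, with 2 to 22 when each library was left out. With the replicate block the counts were 68, 20 and 5 for Int4 against Int1, Int4 against Int2 and Int2 against Int1. Of 44 single changes followed, 26 kept their call under all alternatives tried; of 792 values, 98 lost it and 0 reversed. With no counts in use and 3 libraries per internode, the smallest change that could be called was not measured, and a member that was not called is not shown to be level.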
